A study of Mus musculus with 4 samples.

Results

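Plasmacytoid dendritic cells (pDCs) were drawn from droplet single-cell RNA libraries (10x Genomics) of mouse liver, and 106 of 24030 kept cells met the gate. The members were chosen by measured UMIs (unique molecular identifiers, counted so that copies of a captured transcript count once): a pDC held at least 2 UMIs of Siglech, at least 1 UMI over Ccr9, Cox6a2, Cd209d, Bst2 and Tcf4, and 0 UMIs of the lymphocyte genes Cd79a, Cd3e, Cd3d, Cd3g and Nkg7. Cells entered the gate from barcodes with at least 250 genes and at most 25% mitochondrially encoded UMIs. The gate held 6 cells of Cyr61 KO library 1 (KO 1), 19 of KO 2, 42 of Control 1 and 39 of Control 2. All 4 libraries came from livers of male mice of the strain Cyr61fl/fl, aged 24 weeks, after 12 weeks on a NASH diet, which produces fatty liver with inflammation and scarring; the genotype was KO in 2 libraries and Control in the other two. The strain name shows loxP-flanked Cyr61 in both groups. In which cells it was deleted is not in the labels, nor by which Cre, nor whether each library is 1 animal. The p-values below therefore rest on the spread between these libraries, which may be technical and which the gene tests pool over genes.

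Plasmacytoid dendritic cells are round, secretory-looking dendritic cells that detect viral RNA and DNA in endosomes through the receptors TLR7 and TLR9 and can then release large amounts of type I interferon. Their identity rests on the transcription factor TCF4 (E2-2), while conventional dendritic cells depend on factors such as ID2 and BATF3 and are the stronger antigen presenters. In the mouse they are recognised by the surface proteins SIGLEC-H and BST2 and by the gut-homing receptor CCR9, and the healthy liver holds them as a small resident population.

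Summed over its pDCs, KO 1 had 22601 UMIs and KO 2 had 110870, against 94786 in Control 1 and 179345 in Control 2. The median pDC held 3737 and 5879 UMIs in KO 1 and KO 2, against 1911.5 and 4336 UMIs in Control 1 and Control 2. In CPM (UMIs per 1000000 UMIs of the summed cells), 1 UMI was worth 44.2 in KO 1, 9.02 in KO 2, 10.6 in Control 1 and 5.58 in Control 2, so KO 1 gives the coarsest values. The median mitochondrial share of a pDC was 3.90% and 5.22% in the KO libraries, against 2.63% and 3.84% in the Control libraries. Counts of the libraries of 1 group differed beyond sampling noise, with a chi-squared per degree of freedom of 1.69 between the pDC sums of the KO libraries and 1.84 between those of the Control libraries. Pairs of libraries shared 6 to 22 cell barcodes, and 0 barcodes were a pDC in 2 libraries.

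The genes of the gate chose the cells, and their values are a description. Siglech (chr7:55768178-55778925, plus strand, GRCm38), which encodes a lectin that signals through an ITAM adaptor, had 51 and 317 UMIs in the KO sums and 250 and 383 UMIs in the Control sums. That was 2256 and 2859 CPM in KO and 2638 and 2136 CPM in Control, so the groups overlapped. Cox6a2, a subunit of cytochrome c oxidase otherwise known from heart and skeletal muscle, had 2168 and 1840.0 CPM in KO and 2353 and 1717 CPM in Control. The chemokine receptor Ccr9 had 1150.4 and 731 CPM in KO and 675 and 591 CPM in Control. Cd209d, a C-type lectin, was the rarest marker, with 133 and 180.4 CPM in KO and 306 and 279 CPM in Control. Cox6a2 was found in 86 of the 106 cells, Ccr9 in 77 and Cd209d in 34.

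The label was checked against genes that the gate did not read, though they were measured in the gated cells. A set of 16 other genes known from mouse pDCs (Irf8, Runx2, Spib, Bcl11a, Klk1, Klra17, Ly6d, Pacsin1, Cd7, Atp1b1, Plac8, Lair1, Rpgrip1, Upb1, Smim5 and Ly6c2) made up 0.142% to 3.66% of a pDC's UMIs, with a median of 1.64%. The medians of the libraries were 1.499% and 1.87% in KO 1 and KO 2, and 1.62% and 1.61% in Control 1 and Control 2. A median pDC held 11 of the 16 genes. Around the threshold, the 17 cells with exactly 2 Siglech UMIs held a median of 7 of the 16 genes and 13462 CPM over the set. The 30 kept cells with 1 Siglech UMI and 0 UMIs of the lymphocyte genes held 5.5 genes and 8650 CPM. The 52 cells with 8 or more Siglech UMIs held 13 genes and 17739 CPM. Kept cells with 0 UMIs of Siglech and of the lymphocyte genes held 1 gene and 2461 CPM. The median cell held 1003 UMIs at 0 Siglech UMIs, 1783.5 at 1, 1242 at 2 and 5355 at 8 or more. The number of genes found rises with depth, and these numbers were not matched for depth. Cells with 0 or 1 Siglech UMI were not required to hold a UMI over Ccr9, Cox6a2, Cd209d, Bst2 and Tcf4. They were thus chosen more loosely than the members.

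**Figure D1:**
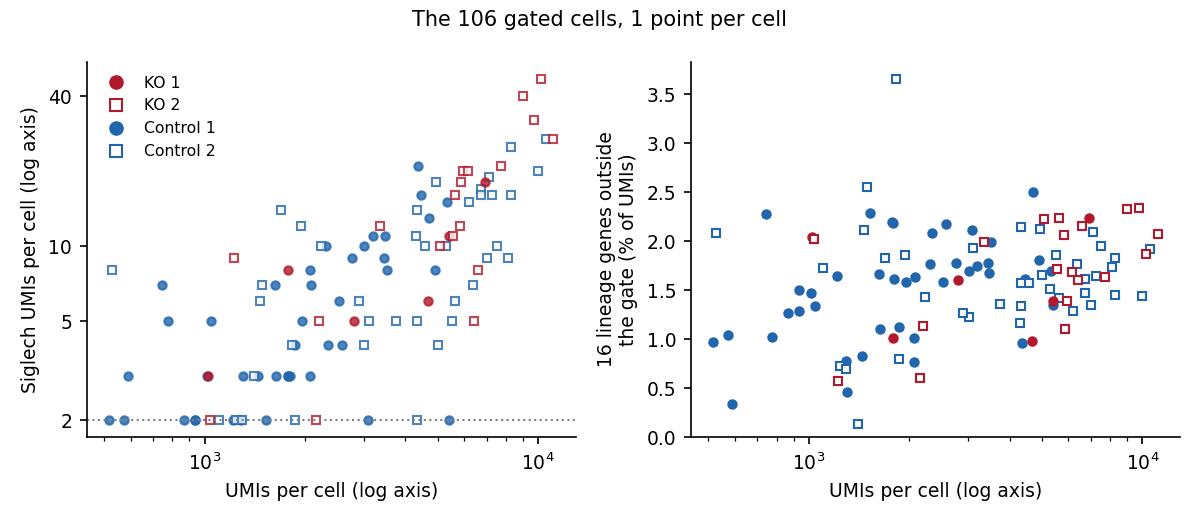
Each point is 1 of the 106 pDCs, in red for KO and blue for Control libraries (filled circles, library 1; open squares, library 2); the x axes give UMIs per cell on a log axis, the left y axis Siglech UMIs on a log axis and the right y axis the share of the 16 lineage genes outside the gate. Siglech counts run from 2 (dotted line) to 47 and rise with depth, while the 16-gene share runs from 0.142%, in a cell of 1408 UMIs, to 3.66%, in a cell of 1831 UMIs, and spreads less in the deepest cells.

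Markers of other lineages were at 0 in some lists and present in others. The genes C1qa, C1qb, C1qc, Clec4f, Adgre1 and Timd4 of macrophages and Kupffer cells, Csf1r and F13a1 of monocytes, Xcr1 of type 1 conventional dendritic cells, Fscn1 and Ccl22 of migratory dendritic cells, Pax5 of B cells and Dcn and Col1a1 of stromal cells had 0 UMIs in all 106 cells. Of 12 macrophage and Kupffer markers, 2 had any UMI, and their sum was 27.1 to 133 CPM in KO and 63.3 to 66.9 CPM in Control. Of the 12 monocyte markers 7 had a UMI, and the list summed to 1947 and 2435 CPM in KO and 2520 to 3281 CPM in Control, of which Ly6c2, a gene that pDCs also express, gave 1770 and 2201 CPM in KO and 2242 to 2954 CPM in Control. The 10 neutrophil markers summed to 18.0 to 44.2 CPM in KO and 10.6 to 162 CPM in Control, the highest being Control 2, where S100a8 was found in 12 of 39 cells. Of 10 markers of type 1 conventional dendritic cells 7 had a UMI, and the list summed to 2522 and 3094 CPM in KO and 2659 and 2688 CPM in Control, led by Irf8, which pDCs also express, with Xcr1, Itgae and Tlr3 at 0. Of 10 markers of type 2 conventional dendritic cells 7 had a UMI, with a sum of 619 and 983 CPM in KO and 601 and 753 CPM in Control. Cd209a, a marker of type 2 conventional dendritic cells, was found in 23 of the 106 cells and Clec9a, which mouse pDCs are known to carry, in 21. T cell markers beyond the gate were 0 for Trbc1, Themis and Cd5, and the 7 markers outside the gate summed to 45.1 to 88.5 CPM in KO and 50.2 to 52.8 CPM in Control. Of 10 B cell markers 7 had a UMI, and the 9 outside the gate summed to 1191 to 1593 CPM in KO and 920.0 to 992 CPM in Control, with Pax5 and Fcer2a at 0; Cd79a was at 0 by the gate. The 9 natural killer and innate lymphoid markers outside the gate summed to 289 to 442 CPM in KO and 327 to 362 CPM in Control, and 10 endothelial markers to 108 to 177 CPM in KO and 158.2 to 189.6 CPM in Control. The part of these transcripts in the results below was not tested.

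Fewer pDCs were recovered from KO livers. They made up 0.0838% of kept cells in KO 1 (6 of 7157, exact binomial 95% interval 0.0308% to 0.182%) and 0.375% in KO 2 (19 of 5065, 0.226% to 0.585%), against 0.890% in Control 1 (42 of 4718, 0.642% to 1.20%) and 0.550% in Control 2 (39 of 7090, 0.391% to 0.751%). Both KO libraries lay below both Control libraries. The intervals cover counting error only, and that of KO 2 overlapped that of Control 2. The mean share was 0.230% ± 0.206 in KO and 0.720% ± 0.240 in Control (SD, n = 2 each), a log2 ratio of -1.65. The exact two-sided permutation test over the 4 shares gave p = 0.333, the smallest p that 2 libraries against 2 allow, so this design cannot reach 0.05. The size rests on single libraries: the log2 ratio was -0.94 without KO 1 and -3.10 without KO 2, and -1.26 without Control 1 and -1.96 without Control 2.

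**Figure D2:**
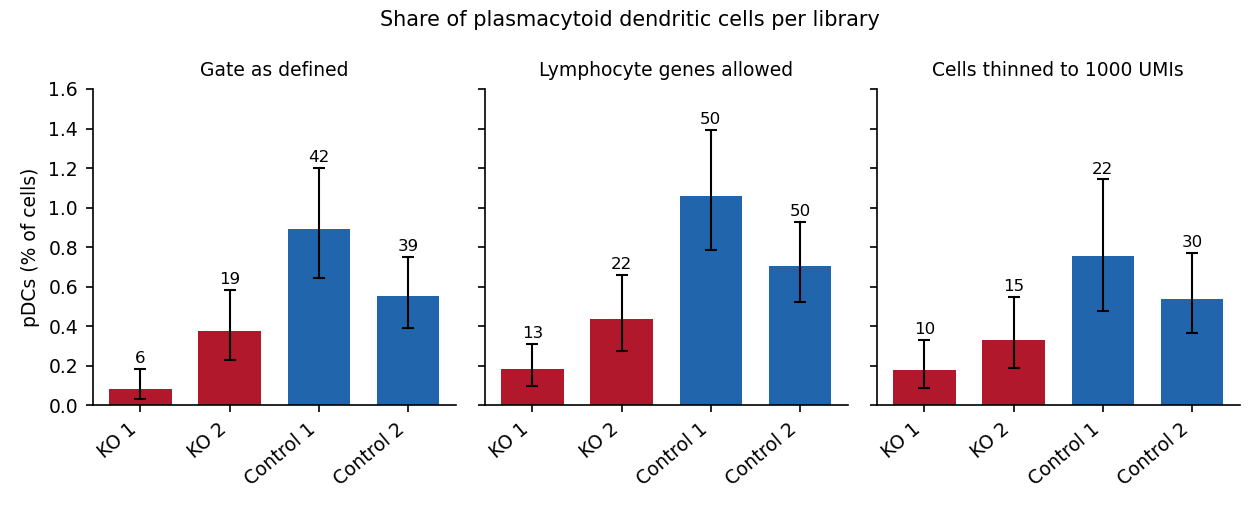
Share of pDCs per library in percent of the cells considered, with KO in red and Control in blue; bars start at 0, error bars are exact binomial 95% intervals and the number over each bar counts the pDCs. Both KO libraries lie below both Control libraries with the gate as defined, with lymphocyte genes allowed, and in cells thinned to 1000 UMIs.

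The exclusion of lymphocyte transcripts took more from KO 1 than from the other libraries. Of the cells with at least 2 Siglech UMIs, it removed 7 of 13 in KO 1 and 3 of 22 in KO 2, against 8 of 50 in Control 1 and 11 of 50 in Control 2. Of these 29 cells, 21 held just 1 lymphocyte UMI, 22 held a Cd3 transcript and 13 held Nkg7. They had a median of 5851 UMIs, carried 13 of the 16 lineage genes in the median cell and 14378 CPM over the set, which lies between the values of members with 2 and with 3 to 7 Siglech UMIs. With these cells kept in, the shares were 0.182% and 0.434% in KO and 1.06% and 0.705% in Control, a log2 ratio of -1.52. With every cell thinned to 1000 UMIs, which leaves out shallower cells, they were 0.179% and 0.331% in KO and 0.756% and 0.539% in Control, a log2 ratio of -1.34. Thinning also drops some of the lymphocyte UMIs that the gate excludes on, and KO 1 then had 10 members. Unthinned cells with at least 1000 UMIs gave 6 members in KO 1 and a log2 ratio of -1.81. The exact permutation p was 0.333 in each of these settings.

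Other classes moved beside pDCs in the same cell totals. Conventional dendritic cells, gated by at least 2 UMIs over Xcr1, Clec9a and Cd209a with 0 UMIs of Siglech and of the lymphocyte genes, made up 0.349% and 0.257% of kept cells in KO and 1.23% and 0.719% in Control. B cells, gated by at least 2 UMIs of Cd79a and 1 of Ms4a1, made up 17.4% and 21.2% in KO and 3.90% and 12.9% in Control. Counted over the kept cells outside both gates, pDCs were 0.102% and 0.478% in KO and 0.938% and 0.637% in Control, a log2 ratio of -1.44. A share cannot tell fewer pDCs from more of other cells, nor from losses in freezing, thawing, digestion or dead cell removal.

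Within pDCs, few genes passed between KO and Control. Of 1619 genes tested, 2 passed an adjusted p of 0.05 in edgeR's quasi-likelihood test (0.124% of all tested), with 0 higher (0.0%) and 2 lower in KO (0.124%), and 99 had an unadjusted p below 0.05. The genes that fell were Hspa1a, an inducible heat shock protein 70, and AY036118, a transcript from a ribosomal RNA locus. With 6 cells in KO 1, changes of moderate size could go unseen, and a gene that missed the threshold is not shown to be the same.

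Hspa1a (ENSMUSG00000091971, chr17:34969190-34972156, minus strand, GRCm38), a chaperone that refolds proteins after heat or dissociation stress, had 4 and 26 UMIs in KO and 70 and 116 UMIs in Control. These were 177 and 235 CPM in KO and 739 and 647 CPM in Control. The KO libraries were both low and the groups did not overlap; the log2 fold change was -1.71 (SE 0.32, edgeR adjusted p = 0.00237). It was found in 2 of 6 and 6 of 19 cells in KO and in 19 of 42 and 22 of 39 cells in Control. Hspa1a did not pass with Control 1 left out (edgeR adjusted p = 0.25), with Control 2 left out (0.0963) or with KO 2 left out (0.0502), nor in DESeq2 (0.9995), and it passed in 8 of 14 alternatives (adjusted p between 4.61e-08 and 0.9995). Its log2 fold change lay between -2.48 and -1.41 in those 14.

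In other cells of the same libraries the KO values of Hspa1a lay above the Control values or overlapped them. It had 1399 and 1039 CPM in KO and 994 and 882 CPM in Control in conventional dendritic cells, 1194 and 827 CPM in KO and 793 and 953 CPM in Control in B cells, and 831 and 556 CPM in KO and 584 and 555 CPM in Control in all kept cells that were not pDCs. The KO difference in pDCs was 2.01 lower on the log2 scale than in those other kept cells (SE 0.42, edgeR interaction, adjusted p = 0.0028). That call was lost in DESeq2 (adjusted p = 0.0993), and without Control 1 or without Control 2 (edgeR adjusted p = 1 in both), where the difference was -2.02 and -2.27. It was also lost with the test kept to genes that passed the filter in pDCs (-1.85, edgeR adjusted p = 0.0567).

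Hspa1b (chr17:34956436-34959238), the neighbouring copy, encodes a near-identical protein, and reads could be split between the pair, so the level of each is uncertain. Hspa1b had 1150.4 and 1245 CPM in KO pDCs and 1941 and 1249 CPM in Control pDCs, and its log2 fold change was -0.46 (SE 0.28, edgeR adjusted p = 0.817). Single cells carried much of the KO values: 1 cell held 16 of the 26 Hspa1b UMIs of KO 1 and 1 cell held 58 of the 138 of KO 2, while the highest cell held 29 of 184 in Control 1 and 19 of 224 in Control 2. For Hspa1a the highest cell held 3 of 4 and 12 of 26 UMIs in KO 1 and KO 2, and 19 of 70 and 15 of 116 in Control 1 and Control 2. The difference between the copies was not tested. The upstream sequences of the pair (250 bases before the start, 5′ to 3′, minus strand, RefSeq, GRCm38.p6) are shown because 1 copy passed and its neighbour did not, and because they are almost the same. They differ in 3 of 250 bases (98.8% identity). Capitals mark GAANNTTC, an inverted pair of the units that heat shock factors are known to bind, which is the same on both strands.

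Hspa1a upstream (chr17:34972157-34972406): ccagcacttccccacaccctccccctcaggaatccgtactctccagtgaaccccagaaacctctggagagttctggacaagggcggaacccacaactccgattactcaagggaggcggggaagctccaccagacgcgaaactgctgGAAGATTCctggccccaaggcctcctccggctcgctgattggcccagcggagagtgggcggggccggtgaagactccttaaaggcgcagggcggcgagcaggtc
Hspa1b upstream (chr17:34959239-34959488): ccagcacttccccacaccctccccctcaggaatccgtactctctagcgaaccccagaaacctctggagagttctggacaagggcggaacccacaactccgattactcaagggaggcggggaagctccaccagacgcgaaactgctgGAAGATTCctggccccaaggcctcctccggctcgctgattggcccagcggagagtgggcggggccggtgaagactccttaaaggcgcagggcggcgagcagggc

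Each holds 1 match, 104 bases upstream of the start. The same letters occur in 6.69% of 32851 RefSeq promoter windows upstream of the start, and a match describes the letters and is no evidence of binding.

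Hspa1a was the one gene of its list that passed. Of the 26 listed immediate early and heat shock genes, 23 were tested, 0 rose and 1 fell (Hspa1a), and the median log2 fold change was -0.33, against -0.01 over all genes tested. Of the 23, 15 were below 0 and 8 above 0, while 827 of all 1619 genes tested (51.1%) were below 0. The 9 chaperone and cochaperone genes, a split made after their values were seen and so no more than a description, lay between -1.71 and -0.33. Among the immediate early genes, which dissociation of tissue is known to induce, Fos had 2168 and 1687 CPM in KO and 2237 and 2671 CPM in Control and did not pass (edgeR adjusted p = 0.813).

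AY036118 (ENSMUSG00000105361, chr17:39847113-39848035, minus strand) lies within the span of Gm42418 (chr17:39846958-39848788, plus strand), both annotated as long noncoding RNAs at a locus known for ribosomal RNA reads. It had 14 and 25 UMIs in KO and 529 and 541 in Control, or 619 and 225 CPM in KO and 5581 and 3016 CPM in Control. The groups were far apart, and the log2 fold change was -3.80 (SE 0.38, edgeR adjusted p = 4.55e-10). The difference was of the same kind in conventional dendritic cells (854 and 134 CPM in KO, 4260 and 2394 CPM in Control), B cells (570.0 and 149 CPM in KO, 2838 and 2192 CPM in Control) and all other kept cells (667 and 174 CPM in KO, 3667 and 2334 CPM in Control), and the KO difference in pDCs was not shown to differ from that in the rest (-0.63, SE 0.40, edgeR adjusted p = 1). Gm42418 had 16415 and 8532 CPM in KO pDCs and 18505 and 28704 CPM in Control pDCs and did not pass (-1.04, SE 0.30, edgeR adjusted p = 0.303). The pair overlaps on opposite strands and the use of strand in counting is not given in the sources used here, so their reads may not be told apart.

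**Figure D3:**
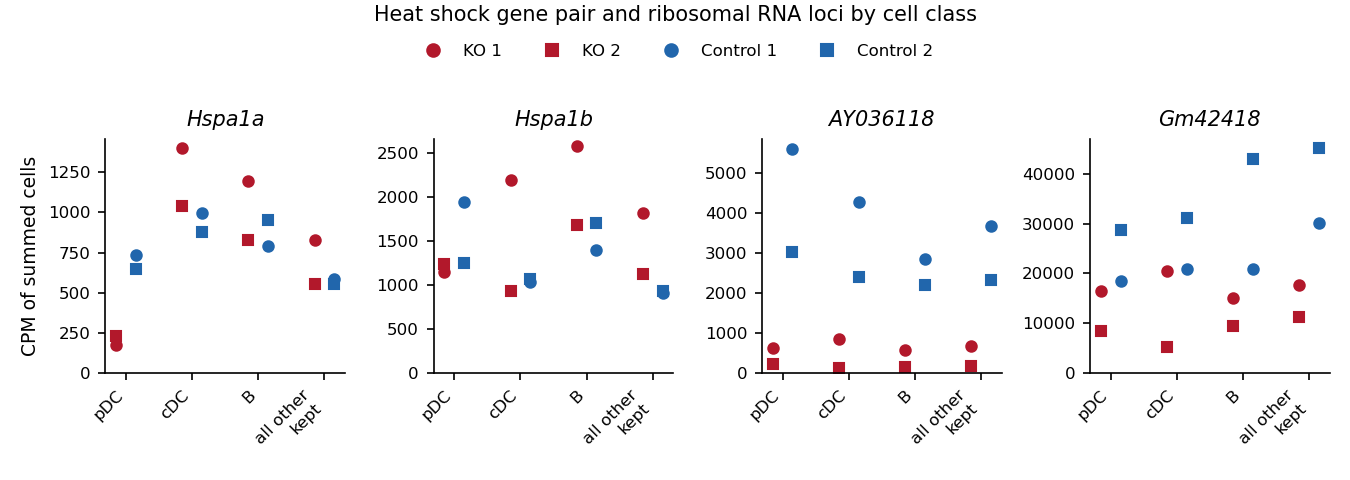
CPM of summed cells for Hspa1a, Hspa1b, AY036118 and Gm42418 in pDCs, conventional dendritic cells (cDC), B cells and all kept cells other than pDCs; red points are KO and blue points Control libraries (circles, library 1; squares, library 2), and each panel has its own axis from 0. In pDCs Hspa1a has 177 and 235 CPM in KO and 739 and 647 CPM in Control, with no overlap; AY036118 lies lower in KO in all 4 classes.

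The genes next in line did not pass. Klk1 (chr7:44225360-44229618), a kallikrein protease found in 52 of the 106 pDCs, had 2080.1 and 875 CPM in KO and 496 and 541 CPM in Control. Both KO libraries were higher, KO 1 well above KO 2, and 1 of the 6 cells of KO 1 held 41 of its 47 Klk1 UMIs. The log2 fold change of 1.21 (SE 0.31) had an edgeR adjusted p of 0.152. It passed in 4 of 14 alternatives, with adjusted p between 3.85e-05 and 0.9995. Gm21762, Zc3h12c, Nipbl and Rgs1 followed with log2 fold changes of 0.98, 1.07, 1.45 and 0.82, and Epc1, Lars2 and Lgals3 with -2.38, -1.14 and -2.12, and none of them passed. Lgals3, galectin-3, had 44.2 and 36.1 CPM in KO and 169 and 151 CPM in Control. These were 1 and 4 UMIs in KO and 16 and 27 UMIs in Control. Of the 43 Control UMIs, 39 lay in 5 cells. Lgals3 was found in 5 of 25 KO cells and in 9 of 81 Control cells.

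No identity gene was called different between the groups. Of the 18 listed pDC transcription factors, 10 were tested and 0 passed in either direction, with a median log2 fold change of 0.13. Irf8, which sets dendritic cell fate, had 2434 and 2868 CPM in KO and 2437 and 2459 CPM in Control. Runx2, which is known to control the exit of pDCs from bone marrow, had 1726 and 1010.2 CPM in KO and 823 and 870 CPM in Control, and Bcl11a had 575 and 776 CPM in KO and 538 and 580 CPM in Control. Of 38 surface and lineage genes, 27 were tested and 0 passed, with a median of 0.12. Among these, Ly6d had 1726 and 4140 CPM in KO and 2701 and 3016 CPM in Control, and the inhibitory collagen receptor Lair1 had 1150.4 and 749 CPM in KO and 633 and 608 CPM in Control.

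The sensing machinery showed no called difference. Of 28 genes of TLR7 and TLR9 sensing, 11 were tested and 0 passed, with a median log2 fold change of 0.06. Tlr7 had 88.5 and 144 CPM in KO and 84.4 and 184 CPM in Control, and Unc93b1, which carries these receptors to endosomes, had 708 and 586 CPM in KO and 665 and 480 CPM in Control. Tlr9 had 0 UMIs in KO and 3 UMIs in Control, and Tlr8 had 0 in both. Of 26 interferon and interferon receptor genes, 20 were at 0 in all pDCs, among them Ifnb1 and Ifna4, and 1 UMI of Ifna2 lay in 1 Control 1 cell. A count of 0 allows up to 22.5 CPM in the KO and 10.9 CPM in the Control sums. The receptor chains Ifnar1 and Ifnar2 were detected, with 133 and 162 CPM in KO and 137 and 190 CPM in Control for Ifnar1.

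Interferon-stimulated genes were sparse and 0 passed. Of 44 listed genes, 38 had a UMI in pDCs and 8 were tested. Of the 8, 7 were below 0, beside 827 of all 1619 genes tested (51.1%). The median log2 fold change was -0.45, against -0.01 over all genes. Ly6a (Sca-1) had 575 and 676 CPM in KO and 1213 and 1104 CPM in Control, and its groups did not overlap (-0.92, SE 0.28, edgeR adjusted p = 0.338). Ifi27l2a had 266 and 1308 CPM in KO and 1910 and 1650.5 CPM in Control (-0.96, SE 0.31, edgeR adjusted p = 0.386). Ly6e and Irf7 overlapped between the groups, Irf7 with 44.2 and 180.4 CPM in KO and 243 and 117 CPM in Control. Of 12 tested mitochondrially encoded genes 10 were above 0 and 2 below, beside the 51.1% of all genes below 0. Of these 12, 0 passed, with a median of 0.31, beside the median mitochondrial shares given above.

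**Figure D4:**
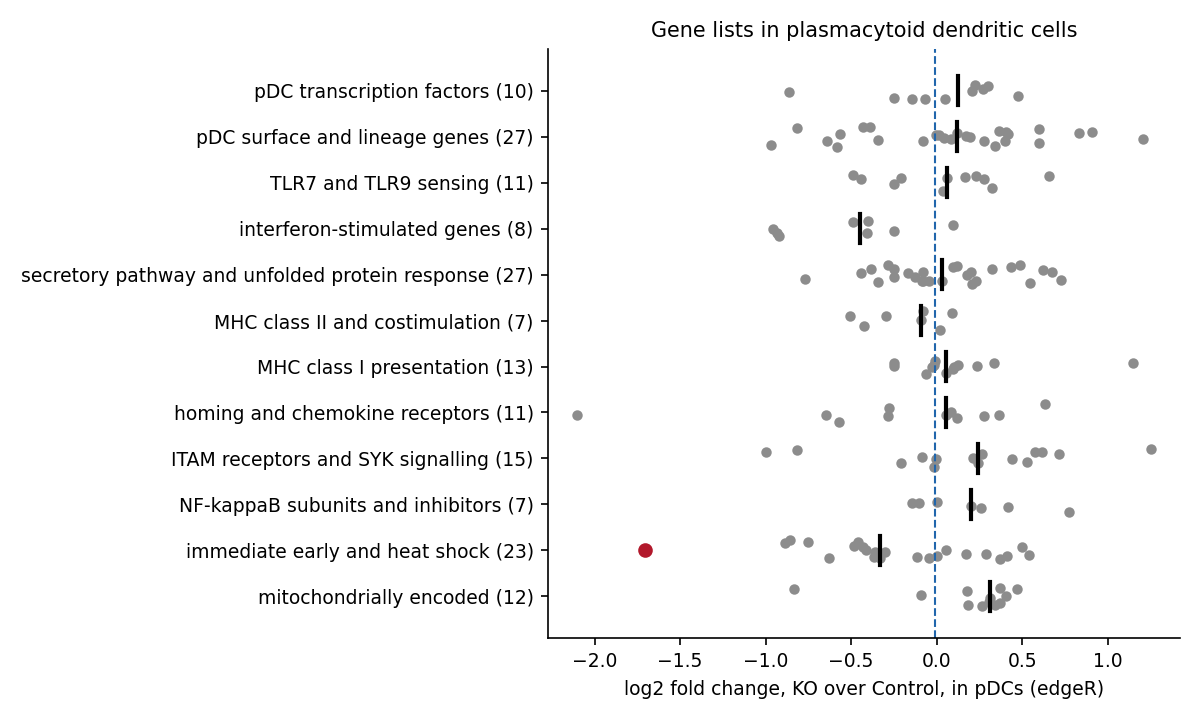
Log2 fold change in pDCs, KO over Control, of the tested members of 12 gene lists (number tested in brackets), 1 point per gene, with vertical jitter; black bars are list medians and the dashed line is the median over all 1619 genes, -0.01. Hspa1a, in red, is the single listed gene that passed, and lies at -1.71.

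The study's title names SYK, NF-kappaB and PDGF, and these were read in pDCs too. Ccn1, the gene for CYR61, had 0 UMIs in the pDCs of every library, so the deletion cannot be read in these cells, and Pdgfb had 0 UMIs as well. Syk, the kinase downstream of ITAM receptors such as SIGLEC-H, had 310 and 271 CPM in KO and 158.2 and 273 CPM in Control (log2 fold change 0.21, SE 0.37, edgeR adjusted p = 0.976), and Nfkb1 had 221 and 198 CPM in KO and 148 and 256 CPM in Control (-0.14, SE 0.42, edgeR adjusted p = 0.99). Rela had 1 and 4 UMIs in KO and 10 and 5 in Control, too few to test. Of 24 genes of ITAM receptors and SYK signalling, 15 were tested and 0 passed, and of 18 NF-kappaB genes 7 were tested and 0 passed. Among the known receptors of CYR61, Sdc4, syndecan-4, had 575 and 595 CPM in KO and 739 and 496 CPM in Control, and the integrin chain Itgb1 had 221 and 108 CPM in KO and 116 and 145 CPM in Control. Neither passed.

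The remaining lists had 0 calls in pDCs. These covered the secretory pathway and unfolded protein response (27 of 36 tested, median 0.03), MHC class II and costimulation (7 of 20, -0.09), MHC class I presentation (13 of 17, 0.06), homing and chemokine receptors (11 of 19, 0.06), cytokines and chemokines (4 of 21, 0.13), survival genes (2 of 19, -0.17) and the cell cycle (5 of 19, 0.10). Ccl4, a chemokine that activated pDCs release, had 7876 and 3175 CPM in KO and 4547 and 3708 CPM in Control. Ccr2 had 0 and 36.1 CPM in KO and 116 and 128 CPM in Control, and its log2 fold change of -2.10 did not pass (SE 0.78, edgeR adjusted p = 0.584). Of 17 genes on a stretch of chromosome 6 around Emp1 and Hebp1, 3 were tested and 0 passed.

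Set against conventional dendritic cells of the same livers (147 cells), pDCs were higher in their own transcription factors and surface genes and lower in MHC class II. The gates of both classes were read from the same cells, so these differences describe the classes, and the genes of either gate were left out. Of 1462 genes tested with the library as a block, edgeR called 545 (37.3%), 293 higher (20.0%) and 252 lower (17.2%) in pDCs. Of 9 tested pDC transcription factors 7 were higher, with Runx2 at a log2 fold change of 3.95 (SE 0.23), Spib at 4.12 (SE 0.40), Irf8 at 2.55 (SE 0.16) and Bcl11a at 2.22 (SE 0.25). All 5 tested factors of the opposing dendritic programme were lower, Id2 at -3.92 (SE 0.34) and Batf3 at -5.09 (SE 0.61). Id2 had 44.2 and 90.2 CPM in KO pDCs and 10.6 and 11.2 CPM in Control pDCs, while conventional dendritic cells had 458 and 843 CPM in KO and 423 and 351 CPM in Control. In pDCs of KO 1 and Control 1 these Id2 values are 1 UMI each, and that of Control 2 lies under the 16.7 CPM of 3 UMIs. Of the 10 listed factors of this programme, 3 were tested between KO and Control pDCs and 0 passed.

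Surface and lineage genes differed by larger folds. Of 21 tested surface and lineage genes 19 were higher in pDCs. Ly6d reached a log2 fold change of 8.95 (SE 0.30), Atp1b1 of 7.95 (SE 0.47) and Lair1 of 5.30 (SE 0.32). Klk1 had 288 UMIs over all pDCs and 0 over all conventional dendritic cells, so it was at least 147-fold higher in pDCs against a floor of 3 UMIs over the class. Gm21762, a gene without an assigned function, was at least 111-fold higher in the same way. Of 3 tested genes among CYR61, its receptors and PDGF, Sdc4 was the one called, higher in pDCs (4.42, SE 0.35, edgeR adjusted p = 1.15e-09).

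Of 9 tested genes of TLR7 and TLR9 sensing 5 were higher and 2, Ctss and Irf5, lower in pDCs. Beside this and the list counts that follow, 20.0% of all 1462 genes tested were higher and 17.2% lower. The cathepsins Ctsl and Ctsb, lysosomal proteases that process endosomal TLRs, had log2 fold changes of 4.81 (SE 0.23) and 2.53 (SE 0.19), and Pld4, a lysosomal nuclease, of 1.30 (SE 0.20). Of 26 tested genes of the secretory pathway and unfolded protein response 14 were higher and 0 lower, among them Mzb1 at 5.72 (SE 0.66), Herpud1 at 1.87 (SE 0.24) and Xbp1 at 1.53 (SE 0.25). The list of MHC class II and costimulation went the other way, with 6 of 7 tested genes lower. Among them were H2-Ab1 at -2.57 (SE 0.18), H2-Eb1 at -2.85 (SE 0.19) and Cd74 at -1.64 (SE 0.18). H2-Oa, part of the class II modulator DO, did not pass. Of 12 tested class I genes 7 were higher and 0 lower. Among the lower genes with the smallest p were Ifitm3, S100a4, Lyz2 and Ifitm2, with log2 fold changes of -6.83, -5.32, -6.68 and -6.88. Monocytes are known to express these genes too, and the gate of conventional dendritic cells excluded no monocyte gene. The 12 monocyte markers summed to 7864 and 10161 CPM in KO and 3419 and 6265 CPM in Control in that gate. In all kept cells other than pDCs they summed to 2839 and 2573 CPM in KO and 4174 and 3074 CPM in Control. The part of monocytes in these differences was not tested. Ifitm6 (-8.12) and Ccl9 (-7.94), named after their values were seen, were lower by larger folds. Of 5 tested cell cycle genes 4 were lower.

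B cells, which pDCs resemble in part of their transcriptome, were set beside them too. Of 3388 genes tested, edgeR called 1478 (43.6%), 710 higher (21.0%) and 768 lower (22.7%) in pDCs. Several genes differed by small folds, which can still pass the threshold. Ly6d stood at a log2 fold change of 0.62 (SE 0.16), Bcl11a at 0.57 (SE 0.18), Spib at 0.86 (SE 0.21) and Blnk at 0.01. Mzb1 was lower in pDCs (-1.16, SE 0.22). Irf8 (3.03, SE 0.16), Tlr7 (2.62, SE 0.36) and Irf7 (2.63, SE 0.34) were higher. Tyrobp, the ITAM adaptor DAP12 that SIGLEC-H signals through, reached 6.25 (SE 0.20), with 4690 and 5042 CPM in KO pDCs and 4800.3 and 4427 CPM in Control pDCs. Dntt, a DNA polymerase of lymphoid progenitors, had 57 UMIs in pDCs and 0 in 3419 B cells, at least 417-fold higher, and Rag1 and Rag2 were at 0 in pDCs. Of 15 tested genes of MHC class II and costimulation 13 were lower and 0 higher. All 8 tested B cell markers were lower, with Ebf1 at -8.87 (SE 0.37).

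**Figure D5:**
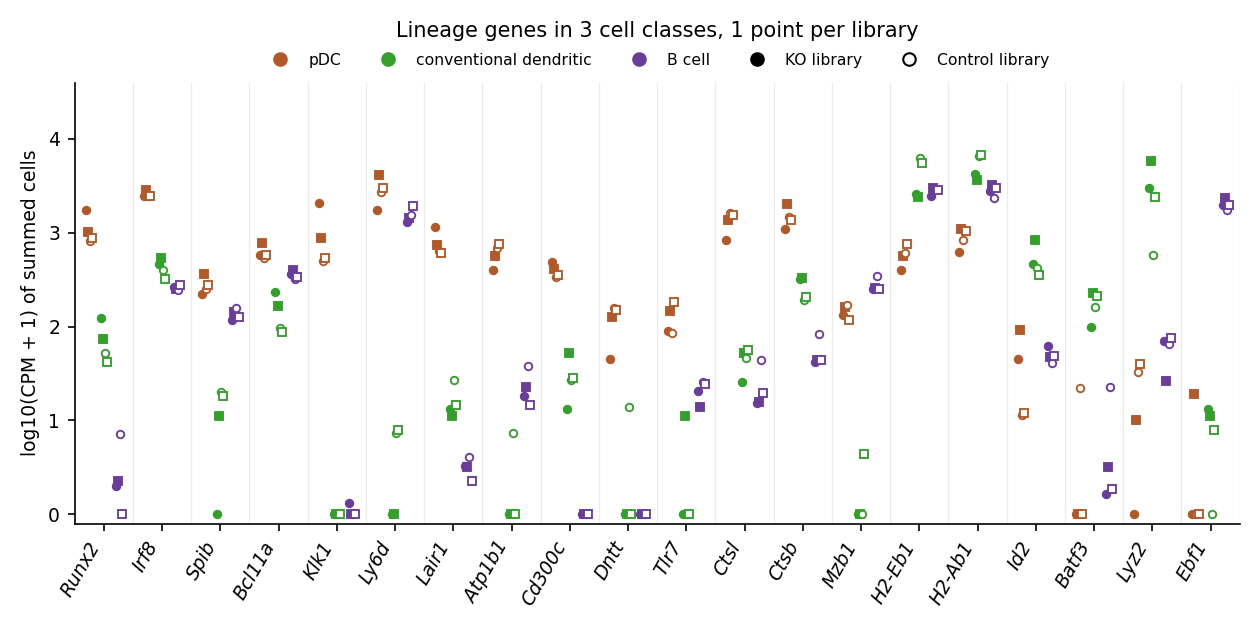
log10(CPM + 1) of summed cells for lineage genes, chosen after their values were seen, in pDCs (brown), conventional dendritic cells (green) and B cells (purple), 1 point per library; filled points are KO and open points Control libraries (circles, library 1; squares, library 2). Runx2, Klk1, Lair1 and Ctsl lie highest in pDCs in every library, H2-Eb1 and H2-Ab1 lowest, and Ly6d, Spib and Bcl11a lie near the B cells.

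At a matched depth of 1000 UMIs, Irf8 was detected in 93.8% of pDCs, 21.1% of conventional dendritic cells and 22% of B cells. Runx2 was detected in 63.9%, 3.12% and 0.0630% of those cells, Cox6a2 of the gate in 64.9%, 0% and 0%, and Klk1 in 39.2% of pDCs. Without thinning, Klk1 was found in 49.1% of pDCs and Runx2 in 85.8%. Il7r, the interleukin-7 receptor of lymphoid cells, was found in 46 of 106 pDCs and Cd8a in 18.

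A few cells stood apart in Lgals3, and they are described with no test. In 5 cells, 0 of KO and 2 and 3 of Control 1 and Control 2, Lgals3 reached 3 UMIs or more, a cut chosen after seeing the values, which fixes their Lgals3 level. These 5 cells held 4703 CPM of Crip1, against 639 CPM in the other 101. Their MHC class II pair H2-Aa and H2-Ab1 summed to 2 UMIs (69.7 CPM), against 2692 CPM in the other cells, and Siglech to 1219 CPM, against 2550 CPM. Cx3cr1 was found in 2 of the 5 and Zbtb46 in 2, and in 0 of the other 101. The 5 cells were also deeper, with a median of 5611 UMIs against 3012 UMIs, which eases the detection of rare transcripts. Cx3cr1, Zbtb46, Crip1 and Lgals3 are among the genes known from transitional dendritic cells in the mouse, and all 10 listed genes of that kind had a UMI in the gate. The list summed to 4425 and 3590 CPM in KO and 4969 and 4199 CPM in Control, of which Ly6c2 gave 1770 and 2201 CPM in KO and 2954 and 2242 CPM in Control. In conventional dendritic cells the same list summed to more, 11851 and 9780 CPM in KO and 8602 and 9830 CPM in Control.

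Last, the KO difference in pDCs was compared with that in all other kept cells. Of 11828 genes tested, the edgeR interaction called 15 (0.127%), 14 higher (0.118%) and 1 lower (0.00845%). The balance turned without KO 2, with 7 higher and 26 lower, and with a further exclusion of cells by 12 genes of other lineages, with 6 higher and 8 lower. For the 5 higher genes with the smallest p, the other cells were low in KO, and within pDCs 0 of the 5 passed between KO and Control. Slpi, a secreted protease inhibitor, had 619 and 171 CPM in KO pDCs and 94.95 and 128 CPM in Control pDCs, but 48.3 and 31.9 CPM in KO and 424 and 275 CPM in Control in the other cells. Ctsl had 841 and 1362 CPM in KO pDCs and 1614 and 1528 CPM in Control pDCs, but 27.9 and 25.8 CPM in KO and 247 and 118 CPM in Control in the other cells. The other cells are a mixture of many types whose shares differ between the libraries. In them 12 stromal and mesothelial markers summed to 0.878 and 5.99 CPM in KO and 2580 and 969 CPM in Control, and in pDCs to 0 and 0 CPM in KO and 10.6 and 0 CPM in Control. The part of that mixture in these calls was not tested. With the test kept to genes that passed the filter in pDCs, an alternative added after seeing the data, 2 genes were called, Slpi and Ptprf.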

How the data were processed

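The deposited files hold raw UMI counts per gene and barcode for 2 KO and 2 Control libraries, and the submitters' processing notes name Cell Ranger 3.1.0 and the build mm10. The filter that chose the deposited barcodes is not given in the sources used here. Of 24719 barcodes, 24030 passed the filters on genes and mitochondrial share. Raw counts of the gated cells were summed per library, since cells are not replicates, and tested with edgeR 4.0.16 in R 4.3.3 (quasi-likelihood test with glmQLFit and glmQLFTest after TMM scaling and filterByExpr; Benjamini-Hochberg over every gene tested, threshold 0.05). KO was set against Control with no covariate, and cell classes were compared with the library as a block. The quasi-likelihood test pools the spread between libraries over genes. The prior degrees of freedom, the weight of the pooled spread, were 45.0 for KO against Control and infinite for the interaction. In the interaction a gene's own spread between libraries thus carried no weight. The 11 gate genes stayed in the library sizes and received no test. No doublet caller was run, beyond the exclusion of lymphocyte genes. Of 32285 gene identifiers, 99.85% matched GENCODE M21 (GRCm38), the source of coordinates. Both heat shock genes looked up matched RefSeq promoters.

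Named genes were the gate genes, Pdgfa, Pdgfb, Rela, Nfkb1, Syk and Ccn1, then for KO against Control up to 10 called genes in each direction (with fewer than 5 calls, the 5 with the smallest p), the 10 higher and 5 lower against the other classes, 5 each way for the interaction, and from each of 34 lists the called genes and up to 6 with the highest level. The members, markers and lists were chosen with earlier results of these data known. Genes chosen after seeing values are marked as such. Gate alternatives were other Siglech minimums, at most 10% mitochondrial UMIs, at least 1000 UMIs and a further exclusion by 12 genes of other lineages. Dropping the lymphocyte exclusion was an alternative for the shares alone, and no gene test was run with those cells put back. Further alternatives were relative log expression size factors, DESeq2 1.42.0 and no filter on low counts. The rest were hepatocyte, haemoglobin and immunoglobulin genes dropped, a replicate block, and each library left out. The scripts were tested on simulated counts. Python 3.11.15 was used.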

Additional observations from a re-analysis of the deposited data

Results flagged for a closer look

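The test of whether the KO difference in pDCs differs from that in other kept cells called 15 genes in edgeR. In the differences of log2 fold changes, pDCs minus other kept cells, Slpi stood at 4.19, Ptprf at 5.68, Ccnd1 at 2.32, Timp2 at 3.28 and Ctsl at 1.94, and Hspa1a at -2.01. Ptprf, a receptor phosphatase, had 133 and 144 CPM in KO pDCs and 94.95 and 55.8 CPM in Control pDCs, against 0.468 and 0.519 CPM in KO and 25.8 and 10.1 CPM in Control in the other cells. Ccnd1, cyclin D1, had 575 and 631 CPM in KO pDCs and 696 and 775 CPM in Control pDCs, against 4.56 and 5.19 CPM in KO and 59.5 and 22.8 CPM in Control in the other cells. Timp2, a metalloproteinase inhibitor, had 88.5 and 144 CPM in KO pDCs and 63.3 and 145 CPM in Control pDCs, against 12.2 and 16.1 CPM in KO and 286 and 86.2 CPM in Control in the other cells. Of these 6 genes, Hspa1a was the one that also passed in the comparison of KO with Control within pDCs.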

How the results depend on the processing

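The lower share in KO kept its direction, and its groups did not overlap, under every alternative that compares the 4 libraries. The margin was small with the further exclusion by 12 genes, where KO 2 had 0.158% (8 cells) and Control 2 had 0.169% (12 cells). Their exact binomial intervals, 0.0682% to 0.311% and 0.0875% to 0.295%, overlapped widely. KO 1 had 0.0559% and Control 1 had 0.636% in that setting. With each library left out in turn the log2 ratio ranged from -3.10 to -0.94. The count of 2 genes changed in pDCs was 1 in DESeq2, 1 with no filter on low counts, 0 with the further exclusion by 12 genes (740 genes tested, 64 at an unadjusted p below 0.05) and 1 to 8 with a library left out; leaving 1 library in a group assumes that it varies like the others. Hspa1a also failed with no filter (edgeR adjusted p = 0.0532) and with the further exclusion (0.352), and AY036118 failed with that exclusion alone (0.23). The deviations of Control 1 and KO 1 from their group means correlated at 0.0428 over 1619 genes. With 2 libraries in a group and 6 cells in KO 1, this value cannot tell whether the replicate numbers pair the libraries. With the replicate number as a block, edgeR called 8 genes and the log2 ratio of the shares was -1.98. The 15 interaction calls were 7 in DESeq2, 9 with at least 1000 UMIs, 2 among genes tested in pDCs alone and 2 to 33 with a library left out; most were higher in pDCs except without KO 2 (7 higher, 26 lower) and with the further exclusion (6 higher, 8 lower). Against conventional dendritic cells, 545 calls became 318 with the further exclusion and 1135 with no filter (418 to 709 with a library left out), and against B cells 1478 became 945 with the further exclusion (1049 to 1630). Syk ranged from -0.091 (without Control 1) to 0.72 with a library left out, and Nfkb1 from -0.46 to 0.36 (without Control 2), and was 0.40 with the further exclusion, none of them called. The cause of these moves was not tested. Of the values of named genes under the alternatives, 617 kept direction and side of the threshold, 26 lost a call, 8 gained one and 3 turned. Depth limits the rest: 1619 genes could be tested in pDCs, and KO 1 rests on 6 cells.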
